A study of Mus musculus with 2 samples.

Results

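The Schlafen genes of the mouse lie side by side on chromosome 11, and H3KAc, the acetylation of histone H3 that marks active chromatin, was mapped along this cluster in Th2 cells. The cluster was taken as the 380 bins of 1 kb from 82740001 to 83120000 on chromosome 11 (mm9). Of these bins, 319 held a read in at least 1 library, out of 2246042 such covered bins in the genome. Chromatin immunoprecipitation followed by sequencing gave 1 library for acetylated histone H3 (anti-H3KAc) and 1 library with non-specific rabbit IgG, which measures background. Both came from C57BL/6 spleen cells positive for CD4 and CD62L. Activation with anti-CD3/CD28 lasted 5 days, with 10 ng/ml of IL-4 to drive Th2 differentiation and 2 µg/ml of anti-IFN-g to block interferon gamma. Resting for 3 days followed. The cells were differentiated in culture, and the labels do not give the number, age or sex of the mice. With 1 library per group there was no replicate check, and every interval below covers counting error only.

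Schlafen proteins take their name from the German word for sleep, because the first members were found to hold back the growth of T cells. The short members Slfn1 and Slfn2 act in T cells, and mice with a mutated Slfn2 lose T cell quiescence. Slfn3 and Slfn4 are of intermediate length, and Slfn4 is known from macrophages. Slfn5, Slfn8, Slfn9 and Slfn14 are long members with a helicase-like part, and Slfn14 of the rabbit is an endoribonuclease that binds ribosomes. Several members are induced by interferon. The order along the chromosome is Slfn5, Slfn9, Slfn8, Slfn2, Slfn1, Slfn4, Slfn3 and Slfn14, and the RefSeq gene table (GRCm38.p6) lists all 8 in the same order. It also places the pseudogene Slfn10-ps between Slfn8 and Slfn2. In mm9, the position of 1 member was at hand, Slfn2 near 82.88 Mb. The other genes are therefore named by their order only, and no peak is assigned to them.

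Short motifs picked from the promoters set Slfn5, Slfn9 and Slfn8 apart from Slfn2, Slfn1, Slfn4 and Slfn3, and the stretches that carry them are shown. This grouping follows from the choice of motifs, and it does not tell the members of a group apart. Sequences are from RefSeq (GRCm38.p6, whose coordinates cannot be set against the mm9 bins), read 5′ to 3′ on the strand of the gene, within the 250 bases before the start site. The motifs were chosen after the sequences had been seen, and both strands were searched. In Slfn5, Slfn9 and Slfn8, capitals mark a match to TTTC, any 2 bases and TTTC, the core of the interferon-stimulated response element, which in Slfn5 is on the opposite strand. The stretches lie at chr11:82951922-82951981 (plus strand), chr11:82991841-82991900 and chr11:83020824-83020883 (both minus strand).
Slfn5: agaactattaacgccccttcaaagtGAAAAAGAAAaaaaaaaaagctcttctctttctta
Slfn9: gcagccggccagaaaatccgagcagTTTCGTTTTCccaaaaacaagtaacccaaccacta
Slfn8: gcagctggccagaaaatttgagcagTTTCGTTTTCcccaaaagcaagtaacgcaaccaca
This motif was found in 2.98% of the 32851 promoters of the table. In Slfn2, Slfn1, Slfn4 and Slfn3, capitals mark ACTTCCTG, a site of the kind bound by ETS factors, which 2.69% of all promoters hold. Slfn3 has it on both strands, and its first capitals are the match on the opposite strand. The stretches lie on the plus strand at chr11:83065032-83065089, chr11:83116721-83116778, chr11:83175088-83175145 and chr11:83191263-83191320.
Slfn2: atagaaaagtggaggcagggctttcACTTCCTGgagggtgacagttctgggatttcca
Slfn1: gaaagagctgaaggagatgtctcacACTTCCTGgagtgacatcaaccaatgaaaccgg
Slfn4: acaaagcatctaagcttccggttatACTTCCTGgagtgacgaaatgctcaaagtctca
Slfn3: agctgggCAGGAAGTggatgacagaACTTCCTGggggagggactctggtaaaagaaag
In Slfn2, Slfn1 and Slfn4 the match went on as ACTTCCTGGAG, which overlaps the shorter motif. This longer motif was defined by the bases that these 3 genes share, so its presence in them was set by the choice. It occurs in 20 of the 32851 promoters (0.0609%), with these genes included. Slfn14 held neither of the motifs. Sites of the kinds bound by STAT factors, TTC and GAA with 4 or 3 bases between, are in 5.85% and 7.02% of all promoters and were found in none of the 8. A TATAAA box, in 12.4% of all promoters, was found in Slfn4. A motif is a match of letters and does not show that a factor was bound.

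The neighbours Slfn9 and Slfn8 had the most alike promoters, with 80.2% identical bases, and the next pair, Slfn8 and Slfn3, had 53.4%. Even so, none of the 28 pairs of promoters shared a run of 35 bases, the length of the reads. The longest shared run of Slfn9 and Slfn8 was 20 bases. Other parts of these genes were not compared.

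The H3KAc library held 21845451 reads at 19711169 distinct positions, and the IgG library 7626703 reads at 1897666. Reads that began at the same base of the same strand counted as 1 position, moved 100 bp along the strand. Levels are reads per 1000000 distinct positions (RPM), so that 1 position is worth 0.0507 RPM in H3KAc and 0.527 RPM in IgG. A bin without an IgG position allows up to 3 positions, or 1.58 RPM, and IgG was missing from 60.2% of the covered bins of the cluster. The depth of IgG therefore limited every ratio of a single bin.

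Over the whole cluster, H3KAc stood above IgG. The 380 bins held 4132 positions in H3KAc and 233 in IgG, or 210 RPM (exact Poisson 95% interval 203 to 216) and 123 RPM (108 to 140). The ratio was 1.71, with an exact conditional binomial 95% interval of 1.50 to 1.96. In the 380 kb on each side together, H3KAc was 497 RPM and IgG 535 RPM, a ratio of 0.930 (0.872 to 0.993). The rest of chromosome 11 had a ratio of 0.992 (0.986 to 0.997).

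IgG moved with this difference. Per covered kb, H3KAc was 0.657 RPM in the cluster and 0.662 RPM in the flanks, 0.992 times as much (0.956 to 1.03). IgG was 0.385 RPM per covered kb in the cluster and 0.712 RPM in the flanks, 0.540 times as much (0.467 to 0.624). Against the pooled flanks, the higher ratio of the cluster thus went with fewer IgG positions at a like mean H3KAc level. The flanks themselves differed. H3KAc per covered kb was 0.766 RPM in the flank before the cluster and 0.557 RPM in the flank after it. IgG was 0.873 and 0.550 RPM. The cluster thus lay between its flanks in H3KAc and below both in IgG, and the cause of the low IgG was not tested. Among tiles of 380 kb on chromosome 11 with at least 0.5 of their bins covered, 4 of the other 311 had a higher ratio, and 153 had more H3KAc.

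Single bins of the cluster reached high H3KAc levels. The median covered bin held 8 H3KAc positions, against 9 on the rest of chromosome 11, while the upper 10% began at 30 positions, against 24. Bins with at least 46 H3KAc positions, the level of the top 1% of covered bins genome-wide, are called high here. The cluster had 12 of them, 3.76% of its covered bins, against 1.02% of all covered bins and 2.06% on the rest of chromosome 11. The lowest high bin held 47 positions and the highest other bin 42. Of the other 311 tiles of 380 kb, 65 had more high bins than the cluster and 10 had as many. The 12 high bins carried 23.0% of the H3KAc positions of the cluster and 5.58% of its IgG positions, and the rest of the H3KAc positions lay outside them. On the rest of chromosome 11, high bins carried 14.5% of H3KAc and 8.31% of IgG positions, and over all covered bins 9.39% and 4.87%. Since high bins are chosen for their H3KAc, a larger share of H3KAc than of IgG is built into these values. Without them the ratio of the cluster was 1.39 (1.21 to 1.60), and that of flank bins below the same level 0.873 (0.817 to 0.934). Per covered kb, H3KAc in these bins of the cluster was 0.872 times (0.837 to 0.908) that of the flank bins, and IgG 0.547 times (0.470 to 0.634). Outside the high bins, the higher ratio thus went with less of both than in the pooled flank bins, and with a larger drop in IgG. The cause was not tested.

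**Figure D1:**
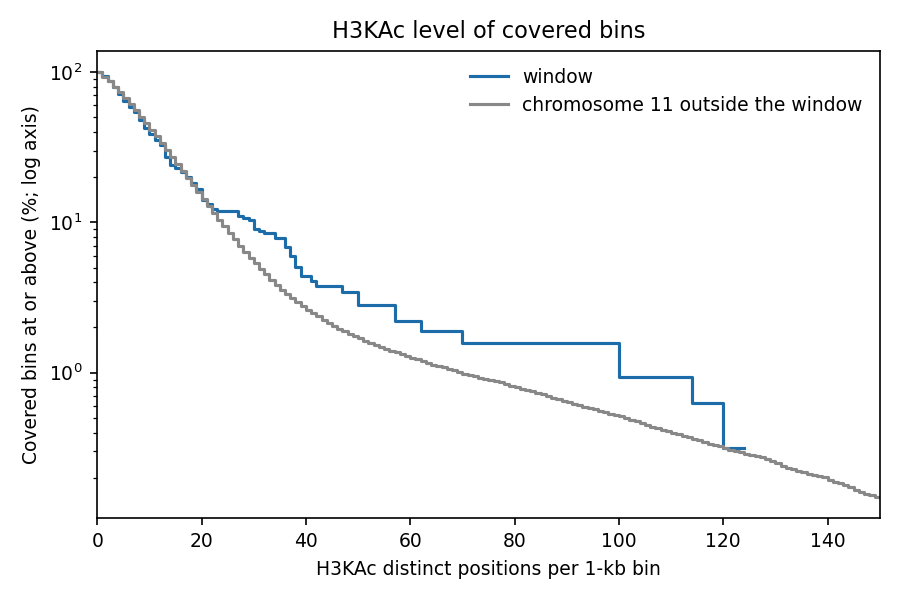
Share of covered 1-kb bins (log axis, percent) that reach each number of H3KAc distinct positions, for the Schlafen cluster and the rest of chromosome 11. The curves run together at low levels, and from about 30 to 120 positions the cluster lies higher. Its top bin held 124 positions.

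Joined across gaps of at most 1 bin, the high bins formed 10 blocks, numbered here along the chromosome, of which 8 were 1 kb wide. Of the blocks, 4 lay on the Slfn5, Slfn9 and Slfn8 side of Slfn2, 1 at the Slfn2 position, and 5 on the side of Slfn1, Slfn4, Slfn3 and Slfn14.

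**Figure D2:**
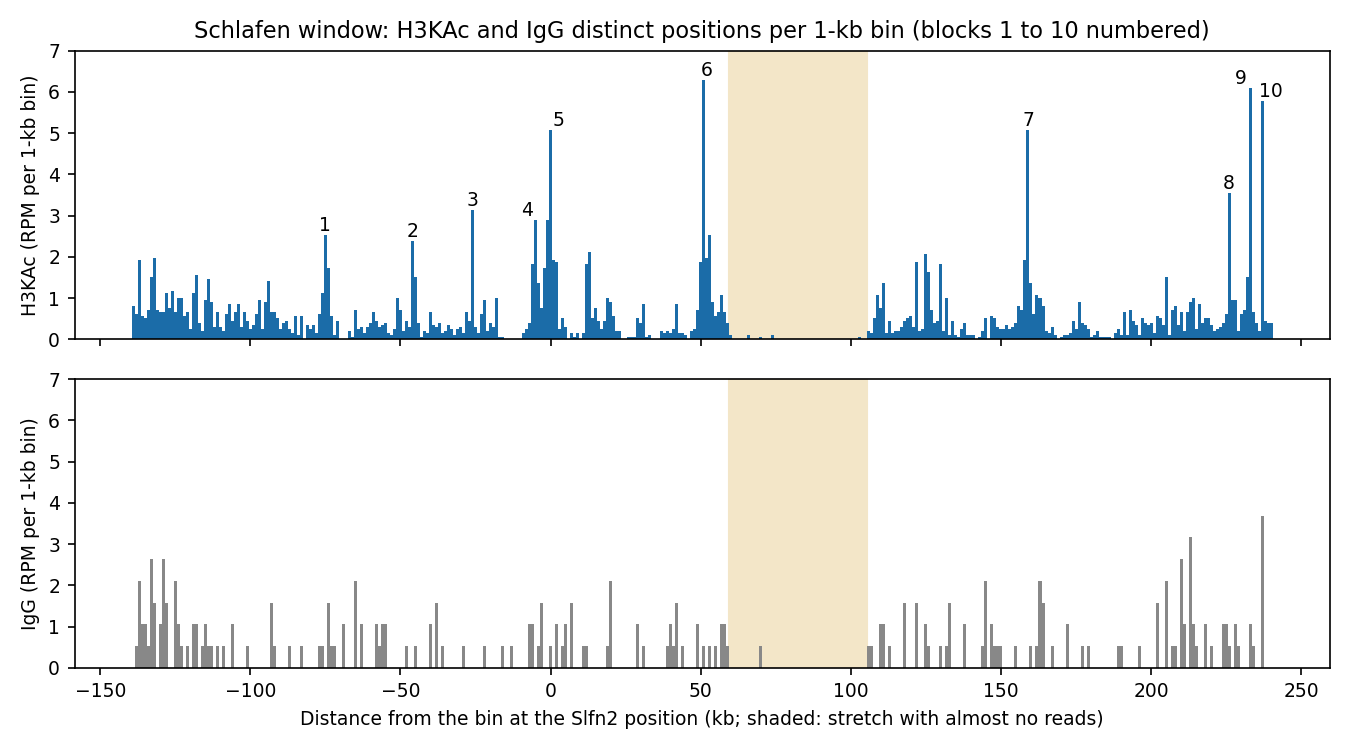
H3KAc (top) and IgG (bottom) in RPM per 1-kb bin, against the distance in kb from the bin at the Slfn2 position, with blocks numbered 1 to 10. H3KAc reached 6.29 RPM in block 6 and 5.07 RPM in block 5 at the approximate Slfn2 position, while IgG stayed at or below 3.69 RPM. The shaded stretch of 46 kb held 8 H3KAc positions and 1 IgG position.

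The position of Slfn2 is given only as near 82.88 Mb, so which of the bins close by holds its start site is not known. The block at this position was block 5, from 82878001 to 82880000. It held 157 H3KAc positions (7.97 RPM, 6.77 to 9.31) and 1 IgG position (0.527 RPM), a ratio of 15.1 (2.67 to 601). Its higher bin, the one that holds the 82.88 Mb position, had 100 H3KAc positions and 1 IgG position, and its lower bin had 57 and 0. The shoulders continued beyond the block, with 34 H3KAc and 0 IgG positions in the bin before it and 38 and 0 in the bin after it. The next bin held 37 and 2, and the bin that followed dropped to 5 H3KAc positions and no IgG position. Block 4, 3 kb before the Slfn2 block, covered 82874001 to 82875000 with 57 H3KAc positions and no IgG position. Over the 21 bins centred on the Slfn2 position, H3KAc was 22.6 RPM and IgG 8.96 RPM, a ratio of 2.52 (1.56 to 4.37). Per covered kb this was 1.25 RPM of H3KAc, 1.91 times (1.73 to 2.11) the level of the whole cluster, which includes these bins. IgG in these bins was 1.29 times (0.741 to 2.12) the cluster level.

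The promoter of Slfn2, the short Schlafen protein linked to T cell quiescence, is given in full. Slfn2 is the only member with a position in mm9 at hand. That position is approximate, and the promoter sequence was not placed in a bin. The promoter covers chr11:83064862-83065111 (GRCm38.p6, plus strand), has 50.8% G and C, and capitals mark ACTTCCTG.
Slfn2: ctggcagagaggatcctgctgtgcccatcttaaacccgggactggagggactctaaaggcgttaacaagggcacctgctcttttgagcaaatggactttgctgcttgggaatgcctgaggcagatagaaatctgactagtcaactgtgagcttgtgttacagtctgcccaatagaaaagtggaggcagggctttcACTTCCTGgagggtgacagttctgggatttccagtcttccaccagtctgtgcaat

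On the side of Slfn5, Slfn9 and Slfn8, the blocks were single bins without any IgG position. Block 1 (82804001 to 82805000) held 50 H3KAc positions, 2.54 RPM (1.88 to 3.34). Block 2 (82833001 to 82834000) held 47 positions, 2.38 RPM (1.75 to 3.17), and block 3 (82853001 to 82854000) held 62, 3.15 RPM (2.41 to 4.03). The intervals of blocks 1 to 4 overlapped, so these blocks cannot be ranked. The lower bound of the H3KAc over IgG ratio was 1.26 in block 1, 1.18 in block 2, 1.57 in block 3 and 1.44 in block 4. No bin on this side, apart from those of the Slfn2 block, had more than 62 H3KAc positions.

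On the side of Slfn1, Slfn4, Slfn3 and Slfn14, 4 of the 5 blocks had a bin with at least 100 H3KAc positions, and block 8 had 70. The highest bin of the cluster, from 82930001 to 82931000 in block 6, held 124 H3KAc positions, 6.29 RPM (5.23 to 7.50), and 1 IgG position. It held more H3KAc positions than 99.9% of all covered bins, and its ratio was 11.9 (2.10 to 475). Block 6 as a whole was the widest, from 82930001 to 82933000, with 213 positions in H3KAc and 2 in IgG, and its ratio was 10.3 (2.80 to 85.2). Block 7 (83038001 to 83039000) had 100 H3KAc positions, 5.07 RPM (4.13 to 6.17), and no IgG position, with a lower bound of 2.56 for the ratio. Slfn1 is the first gene after Slfn2, but the position of Slfn1 in mm9 was not at hand, so block 6 is not assigned to it.

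Toward the Slfn14 end, 3 blocks lay within 12 kb. The place of Slfn14 in mm9 was not at hand, and genes beyond it were not listed. Whether these blocks lie within the Schlafen genes or beyond them was therefore not tested. Block 8 (83105001 to 83106000) held 70 H3KAc positions and 1 in IgG, a ratio of 6.74 (1.17 to 270). Block 9 (83112001 to 83113000) held 120 and 2, a ratio of 5.78 (1.56 to 48.2). Block 10 (83116001 to 83117000) held 114 H3KAc positions but also 7 IgG positions, the most of any bin in the cluster, and its ratio of 1.57 had an interval of 0.737 to 3.99 that included 1. Block 10 thus had nearly the H3KAc level of block 9 without standing apart from IgG. Of the 5 highest bins, all had at least 100 positions with overlapping intervals, and the sixth had 70.

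**Figure D3:**
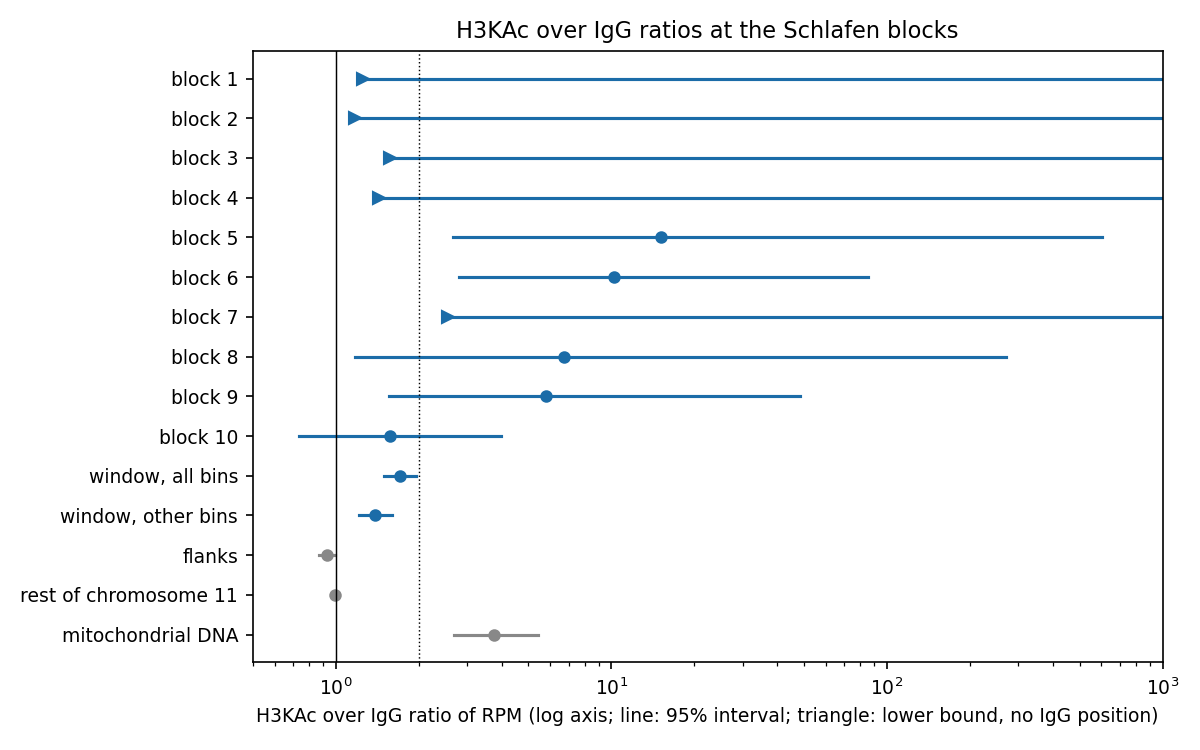
H3KAc over IgG ratio of RPM (log axis) with 95% intervals for the 10 blocks, the cluster, its other bins, the flanks, the rest of chromosome 11 and mitochondrial DNA. Triangles give the lower bound where a block had no IgG position. The intervals of blocks 5, 6 and 7 lie above 2, and that of block 10 includes 1.

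A bin was called enriched when it held at least 5 positions in both libraries together and the lower bound of its ratio was above 2. In the cluster this called 2 bins, 0.627% of the covered ones, against 0.0524% of all covered bins. On chromosome 11, with the cluster included, the share was 0.107%. The 2 enriched bins were the highest bin of block 6, with a lower bound of 2.10, and block 7. The bin at the Slfn2 position missed the call, with a lower bound of 1.69. With a lower bound above 1, 11 bins were called in the cluster, 3.45% against 0.796% on chromosome 11 and 0.409% of all covered bins. Of these 11 bins, 10 were high bins, and the other lay from 82892001 to 82893000 with 42 H3KAc positions and no IgG position. No bin of the cluster had an upper bound below 0.5, against 0.395% of all covered bins. Mitochondrial DNA, which carries no histones, had a ratio of 3.76 (2.69 to 5.43), so a ratio of that size can arise where there is no histone.

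When the IgG of 11 neighbouring bins was pooled as the background of the middle one, 27 bins were called, and they included all 12 high bins. This was 8.46% of the covered bins of the cluster, against 1.84% on chromosome 11 and 1.35% of all covered bins. The 11 bins were counted in full even where some held no read, which lowers the background beside empty runs. This wider background also called lower bins. On the Slfn5 side, the lowest began at 82785001, 82851001, 82857001 and 82861001, with 28, 13, 19 and 20 H3KAc positions. Others lay between blocks 6 and 7. The bin from 83001001 to 83002000 held 37 H3KAc and 3 IgG positions, the bins from 83004001 to 83006000 held 73 and 3, and the bin from 83009001 to 83010000 held 36 and 1. In single bins none of these had a lower bound above 1.

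H3KAc around the blocks was highest near their summits, the 100-bp steps with the most H3KAc positions, which the choice of summits fixes in part. Averaged over the 10 summits, H3KAc was 4.04 RPM per kb within 500 bp, 1.53 RPM per kb from 600 to 1000 bp and 0.604 RPM per kb from 2100 to 3000 bp. IgG was 0.671, 0.263 and 0.369 RPM per kb at the same distances, from 14, 5 and 14 positions. The surroundings of blocks 4 and 5 overlapped, as did those of blocks 9 and 10. Positions in the overlap were counted for each block, so the values at the farthest distance include repeats in both libraries. Block by block, H3KAc per kb was between 2.00 times (block 4) and 7.75 times (block 3) that of the 5 kb on either side. The low value of block 4 has the Slfn2 block in its surroundings. The reads came from both strands, with 38.3% to 55.7% on the plus strand, and a position in the blocks was read at most 4 times in H3KAc.

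**Figure D4:**
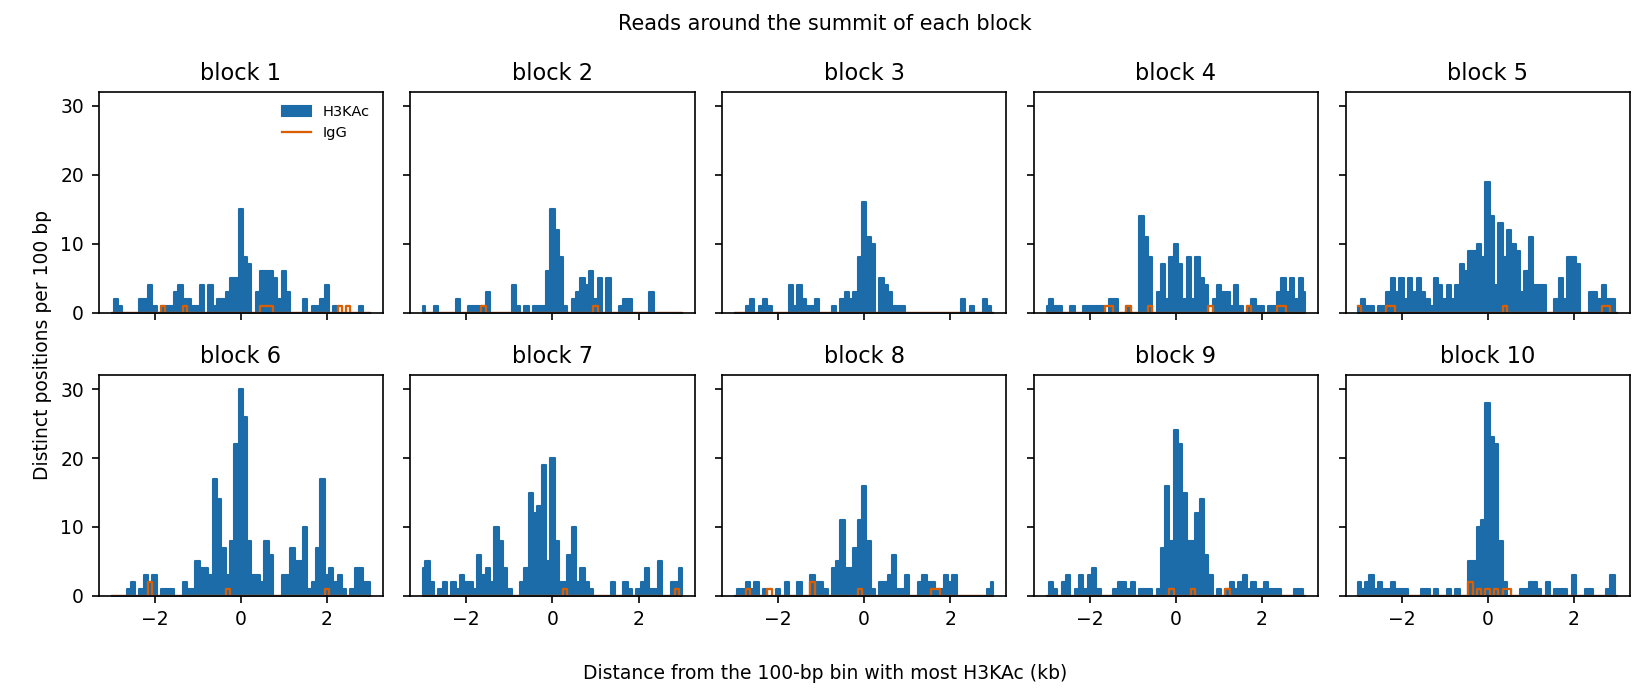
Distinct positions per 100 bp of H3KAc (filled) and IgG (line) against the distance in kb from the summit of each block. Block 6 reaches 30 H3KAc positions per 100 bp and block 10 reaches 28, while IgG stays at 2 or fewer.

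A stretch of the cluster gave almost no reads in either library. The 46 bins from 82939001 to 82985000, 60 to 105 kb beyond the Slfn2 bin, held 8 H3KAc positions and 1 IgG position, and 41 of them had no read. The longest run without an H3KAc position within it covered 28 bins, from 82954001 to 82982000. This stretch holds 41 of the 61 bins of the cluster without any read, and 83.9% of the bins of the cluster were covered, against 98.8% in the flanks. Since IgG was missing as well, the acetylation of this stretch was not measured, and whether its sequence can be aligned was not tested. A run of 6 bins without H3KAc, from 82864001 to 82870000, lay between blocks 3 and 4.

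Taken over all their bins, the sides of Slfn2 were close in mean H3KAc, with 0.986 times (0.926 to 1.05) as much per covered kb toward Slfn14 as toward Slfn5. Bins beyond the Slfn2 bin, toward Slfn14, had 0.639 RPM of H3KAc per covered kb and a ratio of 1.69 (1.42 to 2.03). Bins before it, toward Slfn5, had 0.649 RPM per covered kb and a ratio of 1.65 (1.34 to 2.04). Apart from block 10, the bins with the most IgG were not high in H3KAc. The bin from 83092001 to 83093000 held 18 positions in H3KAc and 6 in IgG, and its ratio was 0.289 (0.110 to 0.889). The bins from 82746001 and from 82750001 held 30 and 13 H3KAc positions with 5 IgG positions each, and the bin from 83089001 held 13 and 5. Among bins with at least 5 positions in both libraries together, 5 in the cluster (1.57% of its covered bins) had an upper bound below 1, against 2.38% of all covered bins.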

How the data were processed

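The deposited files list 1 aligned read per row with its position and strand (35 bases each), without counts or normalization. Reads were aligned with Bowtie to mm9, per the submitters' processing notes. Its version, its filters and how it dealt with multi-mapping reads are not stated there. From these positions, distinct positions were counted in 1-kb bins after a shift of 100 bp, 0.5 of the 200 bp fragment length in the labels' protocols, and scaled to RPM per library. Ratios have exact conditional binomial (Clopper-Pearson) 95% intervals, and levels exact Poisson 95% intervals. The libraries had no molecular identifiers to mark PCR copies, so intervals and the limit of 3 positions cover counting error only. No p-value was computed.

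The cluster, gene list and rules were chosen with earlier results of these data known. Named bins are the enriched bins, the high blocks, the 10 highest in H3KAc, the 3 highest in IgG (with ties), the bins around Slfn2 and the longest runs without H3KAc. Positions of marker genes in mm9 were not at hand, so the Th2 label was not checked. Promoters were matched by symbol (8 of 8 members), and where Slfn8 has several starts the outermost was used. The tools were Biopython 1.88, matplotlib 3.10.9, numpy 2.4.6, pandas 2.3.3, scipy 1.17.1 and Python 3.11.15.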

Additional observations from a re-analysis of the deposited data

Results flagged for a closer look

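Reads removed as repeats of a position are data outside the counts above, and in 2 blocks the interval of their H3KAc over IgG ratio per 1000000 reads lay above 1. Block 9 had 20 removed H3KAc reads and 1 removed IgG read, a ratio of 6.98 (1.12 to 289). Block 7 had 15 removed H3KAc reads and none in IgG, and the lower bound of its ratio was 1.25. Block 10 went the other way, with 23 removed reads in H3KAc and 37 in IgG, and a ratio of 0.217 (0.123 to 0.375). Copies of 1 position entered these intervals as independent, so they may be too narrow.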

How the results depend on the processing

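The ratio of the cluster was between 1.63 and 1.84 under 7 alternative settings, that of the 21 bins around Slfn2 between 2.00 and 3.30, and both kept intervals above 1. Among these settings, 500-bp bins could not change either ratio, since the sums run over the same limits. The 2 enriched bins became 24 with every deposited read (in which IgG copies entered as independent), 1 with reads not moved, 11 with a lower bound above 1 and 27 with IgG over 11 bins. They became 0 with a lower bound above 4, 500-bp bins, plus-strand reads, minus-strand reads or thinned H3KAc. Both bins were among those 24, 11 and 27, and the 1 left with reads not moved was that of block 6. The 0.0524% of covered bins enriched genome-wide became 1.76% with every read, 0.0164% with 500-bp bins, 0.00626% on the plus strand and 0.00636% on the minus strand, 0.00120%, 0.409% and 1.35% with a lower bound above 4, a lower bound above 1 and IgG over 11 bins. The 10 high blocks became 20 at the level of the top 5% and 6 with thinned H3KAc. In the highest bin no IgG position was left in its 500-bp bin or on the plus strand, so the ratio of 11.9 was replaced by lower bounds of 1.78 and 1.54; on the minus strand it was 6.08 (1.05 to 244). The ratio of 15.1 of the Slfn2 block was replaced by a lower bound of 2.05 on the plus strand, and was 7.35 (1.28 to 294) on the minus strand and 10.0 (1.42 to 434) with thinned H3KAc. Fewer reads per bin entered with 1 strand, thinning and 500-bp bins; other causes were not tested. No paired analysis was possible because each group has 1 library. Ratios of the flanks, the Slfn2 block and the cluster without high bins were added after seeing the data.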
